A study of Mus musculus with 10 samples.

Results

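Proteasome genes were followed in ATAC-seq peak lists of MC3T3-E1 cells, a clonal mouse osteoblast line. Peaks were taken as members where their nearest gene had a symbol of Psm, a letter from a to g and a number. The rule found 195 of the 97788 rows of the 4 lists, with 56 in untreated cells, 50 after TNFa, 44 after BMP4 and 45 after TNFa+BMP4. They lay at 38 of the 50 genes of this name, and Psmc3ip, whose product is a recombination factor and no proteasome subunit, matched by its name alone. ATAC-seq marks open chromatin by the cuts of a transposase, and the study asked how an inflammatory cytokine and a bone morphogenetic protein, alone and together, change it. Untreated cells (none), cells given TNFa at 10 ng/ml, cells given BMP4 at 10 ng/ml and cells given TNFa+BMP4 had 2 libraries each. All groups shared a period in medium with less serum. The labels name no engineered allele, and 2 libraries of sonicated DNA of the same cells served as background. TNFa preceded BMP4 by 30 min in the treatment protocol, with 3 h of BMP4, but the label of each TNFa library says 3 h, and the titles of the TNFa libraries alone carry p65 for a reason not given, so comparisons with that group assume like handling. In the sample descriptions the background libraries carry another prefix than all the others, for a reason not given, and no further batch is labelled. Separate cultures are not mentioned, so the p-values describe the spread among the treated and untreated libraries, possibly a technical one.

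The proteasome degrades proteins tagged with ubiquitin. Its barrel-shaped core is built from rings of alpha subunits (Psma genes) and beta subunits (Psmb genes), and regulatory particles of ATPases (Psmc genes) and non-ATPases (Psmd genes) recognise, unfold and feed in the substrate. In cells exposed to inflammatory cytokines, above all interferon gamma, the catalytic subunits Psmb5, Psmb6 and Psmb7 can be replaced by Psmb8, Psmb9 and Psmb10 in that order, giving the immunoproteasome, and Psme1 and Psme2 form an activator that caps it and favours peptides for antigen presentation. In osteoblasts the proteasome is known for turning over Runx2 and Smad proteins and the NF-kB inhibitor, on which BMP and TNF signalling depend.

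The promoter stretches below are shown for the catalytic genes Psmb5 and Psmb6 and the inducible Psmb8, Psmb9 and Psmb10, for the activator gene Psme2, and for Psmc4 and Psma6 as examples of an NRF1 and an ETS match. Psmb7 is named only. They come from RefSeq (GRCm38.p6, the same assembly as mm10) and are the bases just before the gene start, 5′ to 3′ on the gene's strand, with motif matches in capitals. Psmc4 is at chr7:28050093-28050342, minus strand, and Psma6 at chr12:55398575-55398824, plus strand. Psmb5 is at chr14:54617996-54618245, minus strand, and Psmb6 at chr11:70525107-70525356, plus strand. Psmb8 is at chr17:34197945-34198194, plus strand, Psmb9 at chr17:34187331-34187555, minus strand, Psmb10 at chr8:105938393-105938642, minus strand, and Psme2 at chr14:55591102-55591351, minus strand. The Psmb9 stretch stops after 225 bases, before the start of Tap1 on the other strand, and the others hold 250 bases.
Psmc4: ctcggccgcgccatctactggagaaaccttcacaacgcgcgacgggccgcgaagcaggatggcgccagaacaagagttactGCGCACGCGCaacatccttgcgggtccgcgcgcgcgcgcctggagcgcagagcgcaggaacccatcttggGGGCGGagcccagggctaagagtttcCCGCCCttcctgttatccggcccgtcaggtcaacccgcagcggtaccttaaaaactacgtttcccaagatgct
Psma6: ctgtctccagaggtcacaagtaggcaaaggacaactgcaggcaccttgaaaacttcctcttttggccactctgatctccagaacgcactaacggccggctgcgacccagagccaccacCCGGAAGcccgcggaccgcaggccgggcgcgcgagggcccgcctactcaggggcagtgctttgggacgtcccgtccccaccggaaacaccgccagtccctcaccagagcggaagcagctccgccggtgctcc
Psmb5: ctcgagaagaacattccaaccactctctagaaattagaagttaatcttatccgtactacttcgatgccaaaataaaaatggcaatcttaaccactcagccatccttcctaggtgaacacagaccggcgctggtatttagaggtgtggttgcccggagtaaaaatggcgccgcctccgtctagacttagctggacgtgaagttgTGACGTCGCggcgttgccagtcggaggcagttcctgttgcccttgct
Psmb6: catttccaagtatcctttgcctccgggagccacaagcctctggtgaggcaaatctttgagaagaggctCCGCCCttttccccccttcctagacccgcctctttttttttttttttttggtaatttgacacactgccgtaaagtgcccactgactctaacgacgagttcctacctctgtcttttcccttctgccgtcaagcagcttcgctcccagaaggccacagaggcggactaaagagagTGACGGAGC
Psmb8: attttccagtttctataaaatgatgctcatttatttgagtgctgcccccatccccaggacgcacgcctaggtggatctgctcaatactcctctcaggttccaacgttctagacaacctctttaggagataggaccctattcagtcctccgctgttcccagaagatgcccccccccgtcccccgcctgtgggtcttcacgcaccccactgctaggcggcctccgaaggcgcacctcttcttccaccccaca
Psmb9: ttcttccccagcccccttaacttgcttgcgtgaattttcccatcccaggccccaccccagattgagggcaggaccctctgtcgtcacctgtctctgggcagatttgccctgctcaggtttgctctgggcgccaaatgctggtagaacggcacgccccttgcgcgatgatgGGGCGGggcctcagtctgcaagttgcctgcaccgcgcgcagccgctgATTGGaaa
Psmb10: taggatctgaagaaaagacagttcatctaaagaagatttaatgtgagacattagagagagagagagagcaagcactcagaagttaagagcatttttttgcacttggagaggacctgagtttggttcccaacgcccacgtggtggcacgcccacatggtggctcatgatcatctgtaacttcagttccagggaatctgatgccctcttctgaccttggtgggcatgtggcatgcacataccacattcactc
Psme2: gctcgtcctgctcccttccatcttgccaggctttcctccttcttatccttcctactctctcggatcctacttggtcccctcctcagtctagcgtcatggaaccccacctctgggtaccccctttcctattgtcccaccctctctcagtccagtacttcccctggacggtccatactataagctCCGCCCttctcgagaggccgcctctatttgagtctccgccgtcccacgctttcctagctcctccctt

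In the stretches printed here, Psmc4 held an NRF1 match from base -169 to -160 and GC boxes at -99 to -94 and -73 to -68, and Psma6 held an ETS match at -132 to -126, counted from the gene start. Psmb5 held an antioxidant response element (ARE) match at -47 to -39, and Psmb6 an ARE match at -9 to -1 and a GC box at -182 to -177. Psmb9 held a GC box at -55 to -50 and a CCAAT box at -8 to -4, and Psme2 a GC box at -67 to -62. Psmb8 and Psmb10 held none of the motifs searched, and no printed match overlapped another. Open windows of the authors covered 125 bases of the Psma6 stretch, 103 of the Psme2 stretch and, under the name of Tap1, 125 of the Psmb9 stretch. No window fell inside the Psmb8 and Psmb10 stretches, whose windows lie farther upstream and inside the gene.

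Promoters of constitutive subunit genes, taken as the 250 bases before to 50 after a RefSeq start, were searched for 8 motifs, among them those of ETS factors and of NRF1, a regulator of housekeeping and mitochondrial genes. No difference from all promoters was tested. The ETS letters CCGGAAG were in 11 of 27 promoters of 25 constitutive genes (40.7%), with Psmc2 counted for both of its promoters, against 8.86% of 32851 RefSeq promoters. The NRF1 motif was in 6 (22.2%), against 4.6%. The GC box GGGCGG was in 15 (55.6%) against 35.7%, and the CCAAT box in 10 (37%) against 37.4%. The ARE letters TGACNNNGC, bound by Nrf2 and by Nrf1 of the Nfe2l1 gene, which drives proteasome genes when proteolysis fails, were in 4 (14.8%) against 12.4%. The interferon-stimulated response motif was in 2 (7.41%) against 3.44%, the NF-kB motif in 1 (3.7%) against 4.51%, and the CRE letters TGACGTCA in 0 against 1.79%. Of 6 promoters of the 5 immunoproteasome genes, 4 held a GC box (Psmb9, Psme1 and both of Psme2), 1 a CCAAT box (Psmb9) and 1 the interferon-stimulated response motif (Psme1), and none held the ETS, NRF1, ARE, CRE or NF-kB motif. Both strands were searched, and a match describes letters and not a bound site. Median GC content was 56.7% in constitutive, 58.5% in immunoproteasome and 52.7% in all promoters.

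**Figure D1:**
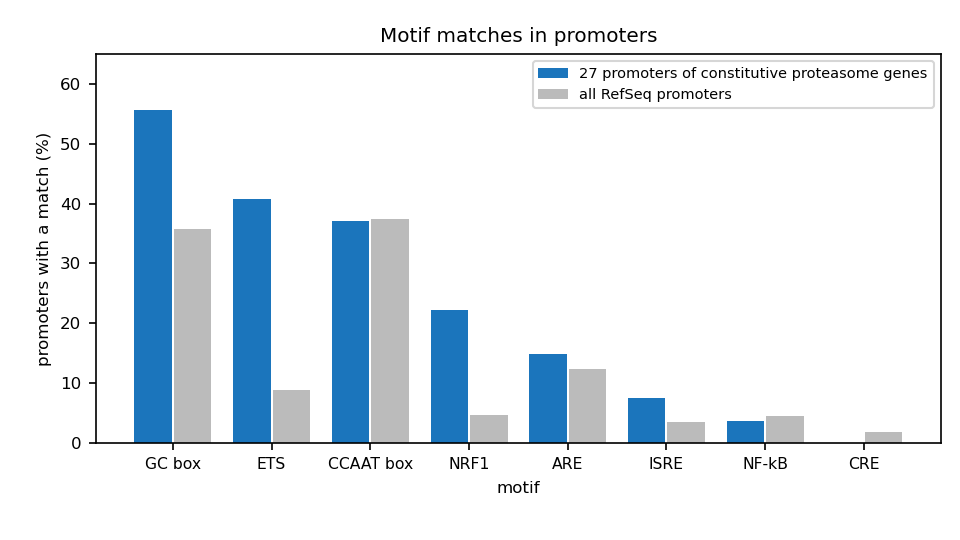
Share of promoters (percent, y axis) with at least 1 match on either strand, for 8 motifs on the x axis, in the 27 promoters of constitutive proteasome genes (blue) and in all 32851 RefSeq promoters (grey). The ETS share is 40.7% against 8.86%, and the CCAAT shares are 37% and 37.4%.

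Libraries held 16486613 to 30051723 tags, and the 4 that received TNFa had the fewest. In such bulk libraries more cells with an open window and more cuts per cell cannot be told apart. Libraries of a group resembled each other less than some of different groups. Over 14416 windows, no independent points, log2 values of replicates correlated at 0.393 to 0.749, whereas untreated replicate 2 and BMP4 replicate 2 correlated at 0.953. Other pairs across groups also exceeded all replicate pairs. Examples are BMP4 replicate 1 with TNFa+BMP4 replicate 1 (0.933) and untreated replicate 1 with TNFa+BMP4 replicate 2 (0.903). Results were also computed without untreated and BMP4 replicate 2, which leaves such other pairs in. Of 10 osteoblast marker genes, 9 had a window in at least 1 list and Alpl had none; of the markers of other cell types, Ptprc, Cd68, Myod1, Myog and Ckm had none, whereas 2 of 4 adipocyte, 2 of 4 haematopoietic and 2 of 3 endothelial genes had one.

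Most constitutive subunit genes had an open window near their start in each group. Of 32 genes of the alpha ring, beta ring, ATPases and non-ATPases, 25 had a window within 1000 bp of a gene start in untreated cells (78.1%). After TNFa 24 had one (75%), after BMP4 22 (68.8%) and after TNFa+BMP4 24 (75%). Such a window is called a promoter window here. Among 21900 protein-coding genes the shares were 33.8%, 32.6%, 31% and 32.4% (a listed promoter window each); the difference was not tested. Promoter windows made up 66.1%, 74%, 63.6% and 75.6% of the proteasome rows, and 37.1%, 41.1%, 37.3% and 40.9% of all rows, in the same order. The rows merged into 68 loci, of which 42 lay within 1000 bp of a start and 26 farther out. Of the near loci 23 were in all 4 lists, and of the far ones 6. A locus missing from a list did not meet the authors' criteria there, which is not a measurement of closed chromatin, and for 13 of the 39 loci missing from a list another list's window lay within 500 bp.

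Every role of the constitutive particle was represented. In the alpha ring, which gates the core, 7 of 8 genes had a promoter window and Psma8, the testis form, had none. In the beta ring, which holds the proteolytic sites, 6 of 7 genes had one and Psmb4 had none. Promoter windows were listed for 4 of 6 ATPase genes and 10 of 11 non-ATPase genes. Psmc5, an ATPase, and Psmd13, a non-ATPase, had no window of their own name, but windows named after the facing genes Ftsj3 and Sirt3 lay 73 and 69 bp upstream of their starts in all 4 lists. The far loci include windows of Psmd7, the scaffold partner of the deubiquitinase Psmd14 at up to -455366 bp from its start, where the nearest-gene rule alone ties them to it. The same rule alone ties the intergenic windows of Psma3, Psma6 and Psmc1 to these genes. It also ties to Psmd4 a window at -24183 bp that is annotated in an intron of another transcript. Among assembly factors, the base chaperones Psmd5, Psmd9 and Psmd10 each had a promoter window, as did the core chaperones Psmg1 and Psmg4. Psmg2 and Psmg3, the activator Psme4, the inhibitor Psmf1 and the thymus subunit Psmb11 had no window.

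The BMP4 list held promoter windows of 26 proteasome genes, against 34 in untreated cells, 34 after TNFa and 32 after TNFa+BMP4. Loci found in the other 3 lists and not in the BMP4 list numbered 9, among them those of Psmb1, Psmb7, Psmd2 (a large scaffold subunit), Psmd12, Psmg1 and Psmg4. Psmb5 at -67 bp and Psmd1 at 43 bp also count among the 9, but the BMP4 list held another window of each gene within 500 bp. Loci in the untreated and BMP4 lists only numbered 7, among them Psmc4 at -38 bp and Psmd14, the deubiquitinase of the lid, at 68 bp. In the pair of lists with TNFa only there were 3, at Psmc2, at Psmb10 and at -5530 bp of Psma6. Within 500 bp of the last lay a Psma6 window at -5373 bp, which counts among the 7 of the untreated and BMP4 lists. The BMP4 list was also the lowest for all protein-coding genes, with a promoter window at 6779, against 7407, 7128 and 7086 in the other lists in the order used before. Shares of all loci missing from or found in the same lists were not computed, and no test bears on these counts, since each list was called once on pooled replicates. The median difference between replicates of a window present in all lists was largest in the BMP4 group, 1.01 on the log2 scale over all windows against 0.59 to 0.75 in the others, and its part in the list counts was not tested.

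**Figure D2:**
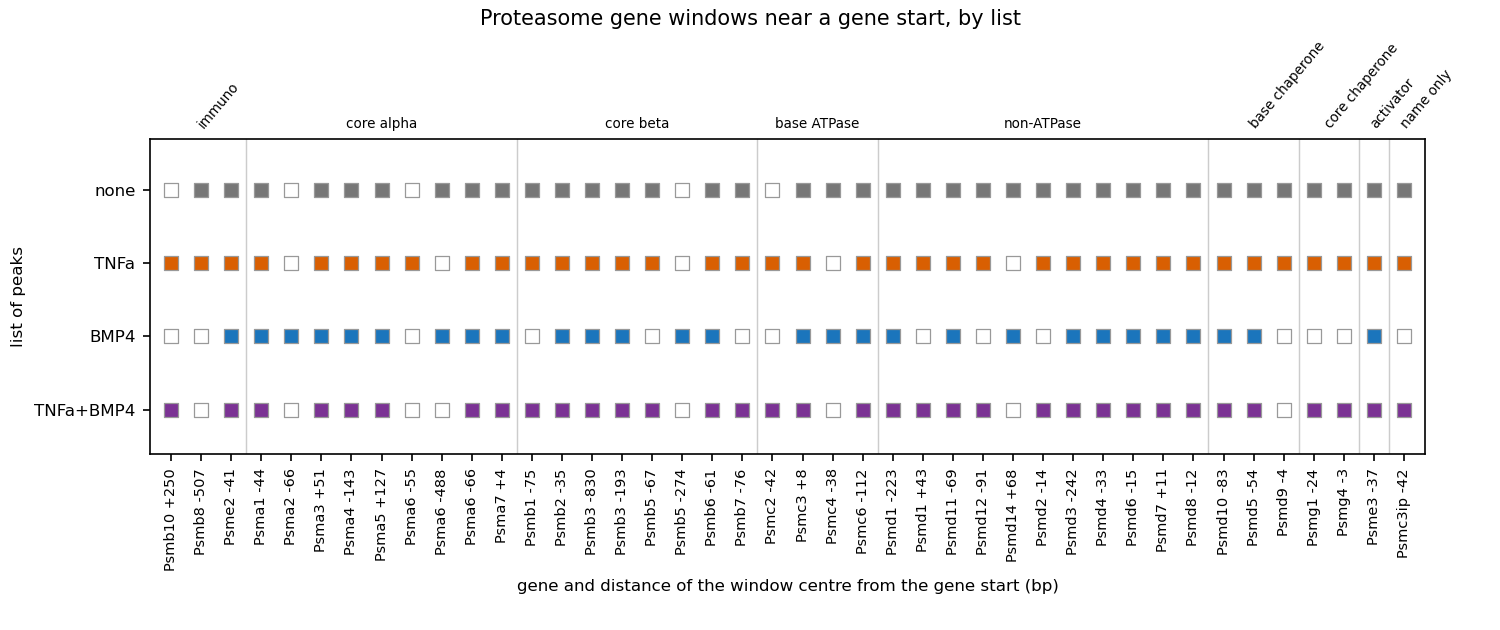
Windows of proteasome genes within 1000 bp of a gene start (x axis, gene and median distance of the window centre in bp, grouped by role) in each of the 4 peak lists (y axis). Filled squares mark a listed window and open squares none; 23 of the 42 loci are filled in all 4 rows, and Psmb10 and Psmb8 are filled in 2 rows each.

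Levels over background varied between replicates. Scaled to 10000000 total tags, the median proteasome row held 12.1 and 13.1 in the untreated libraries, 8.49 and 15.5 in the TNFa libraries, 10.4 and 17.9 in the BMP4 libraries and 8.27 and 16.5 in the TNFa+BMP4 libraries. The same windows held medians of 0.985 to 1.62 in the sonicated DNA. In 4 rows a treated library did not exceed both background libraries. The Psmb1 promoter had 1.82 in TNFa replicate 1 and 24.3 in replicate 2, against 2.02 and 2.33 in background. The Psmb6 promoter had 1.54 and 23.6 after BMP4, against 1.82 and 1.25. The other rows were Psmd12 and Psmg4 after TNFa+BMP4, each at 3.22 in replicate 1, against 44.6 and 23.4 in replicate 2. In each of the 4 rows the low library was replicate 1. These rows and the catalytic genes Psmb5, Psmb6 and Psmb7 below were chosen for description after their values were seen.

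The constitutive catalytic genes were listed in nearly all groups. For a common scale, levels are given as CPM, the tags of a window per 1000000 tags in all tested windows after trimmed-mean scaling, and all windows have 125 bp. Psmb5, the chymotrypsin-like subunit, had a window at -67 bp with 25.1 and 33.0 CPM in untreated cells, 18.9 and 44.2 after TNFa and 15.5 and 28.3 after TNFa+BMP4. Its window in the BMP4 list lay at -274 bp and held 6.9 and 29.2 CPM. Psmb6, the caspase-like subunit, held 27.6 and 31.5 CPM in untreated cells, 15.4 and 27.5 after TNFa, 4.58 and 42 after BMP4 and 11.3 and 26 after TNFa+BMP4. Both libraries of TNFa and of TNFa+BMP4 were below both untreated ones at Psmb6, and the BMP4 libraries lay on either side. Psmb7, the trypsin-like subunit, held 9.2 and 12.5 CPM in untreated cells, 8.6 and 25.1 after TNFa and 5.6 and 10.2 after TNFa+BMP4, and was not in the BMP4 list.

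Few of the listed windows carried the name of an immunoproteasome gene. Psme2, the beta subunit of the activator, was the only one of the 5 genes with a window in all 4 lists, Psmb8 and Psmb10 had windows in 2 lists each, and Psmb9 and Psme1 had no window of their own. The Psme2 window (mm10 chr14:55591080-55591204) was centred 41 bp upstream of the start and overlaps its first bases. At a mean of 161 CPM it had the highest level of all 29 proteasome windows tested and lay at the 92nd percentile of all windows. It held 66.2 and 128 CPM in untreated cells, 185 and 131 after TNFa, 286 and 123 after BMP4 and 273 and 94 after TNFa+BMP4. Untreated replicate 1 was lowest, and replicate 1 was above replicate 2 in each treated group. Both TNFa libraries were above both untreated ones, and the other groups overlapped.

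In the fit over all windows Psme2 passed in no comparison. The log2 fold change against untreated cells was 0.75 ± 0.70 (SE) with TNFa, 1.01 ± 0.70 with BMP4 and 0.79 ± 0.70 with TNFa+BMP4, with limma adjusted p = 1.00, 1.00 and 0.897. These differences were 0.32 without untreated replicate 1, 0.41 without BMP4 replicate 1 and 0.027 without TNFa+BMP4 replicate 1, and 1.19, 1.60 and 1.55 without the other library of the same group. The interaction, the change by TNFa in the presence of BMP4 minus that without, was -0.97 ± 0.99 (limma adjusted p = 1.00), and -0.21 without TNFa+BMP4 replicate 2. Averaged over BMP4, the TNFa difference was 0.26 ± 0.49 and turned to -0.03 without BMP4 replicate 2 and to -0.12 without TNFa+BMP4 replicate 1. Without untreated and BMP4 replicate 2 together, the difference between BMP4 and untreated cells was 2.03 and the interaction -1.99, with 1 library left in each of those groups, and neither passed.

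The other immunoproteasome windows were lower and listed in fewer groups. Psmb8, which replaces Psmb5, had a window at chr17:34197622-34197746 (mm10), centred at -511 bp, with 21.8 and 11 CPM in untreated cells, and one shifted by 8 bp with 15.4 and 23.9 CPM after TNFa. The libraries of the groups overlapped. Psmb10, which replaces Psmb7 at the trypsin-like site, had a window at chr8:105938080-105938204, in the 5′ UTR in exon 1, with 22.3 and 16.7 CPM after TNFa and 18.3 and 19.3 after TNFa+BMP4. In the authors' deposited table the log2 fold over background of these 4 rows was 2.06 to 2.14, at percentiles 2.23 to 3.66 of their lists, against 3.5 to 4.43 for Psme2. The authors' deposited table gives these rows adjusted p-values over background of 0.0353 to 0.0485, and the level of both genes in the lists without them was not analysed here.

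The promoter of Psmb9 was covered by a window named after another gene. Psmb9, the immunoproteasome subunit next to the peptide transporter gene Tap1, shares its promoter with it, and the window at chr17:34187413-34187537 (mm10) is named after Tap1, 81 bp upstream of the Tap1 start and 145 bp upstream of that of Psmb9. It held 101 and 92.4 CPM in untreated cells, 151 and 146 after TNFa, 69.8 and 67.4 after BMP4 and 104 and 160 after TNFa+BMP4. All 4 libraries given TNFa lay above all 4 others, with a TNFa average difference of 0.75 ± 0.35 that did not pass (limma adjusted p = 0.854). Such separation was found upwards in 1.82% of all windows. A second window, inside Tap1, lay 188 bp from its start and 414 bp upstream of the Psmb9 start. It held 160 and 61.6 CPM in untreated cells, 203 and 179 after TNFa, 142 and 43.9 after BMP4 and 173 and 214 after TNFa+BMP4, again without overlap and without passing. This pair of windows was chosen after the values were seen, and so was a window of Rnf31 upstream of Psme2, which held 52.8 and 63.1 CPM in untreated cells, 84.1 and 78.9 after TNFa, 165 and 69.3 after BMP4 and 185 and 78.1 after TNFa+BMP4.

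**Figure D3:**
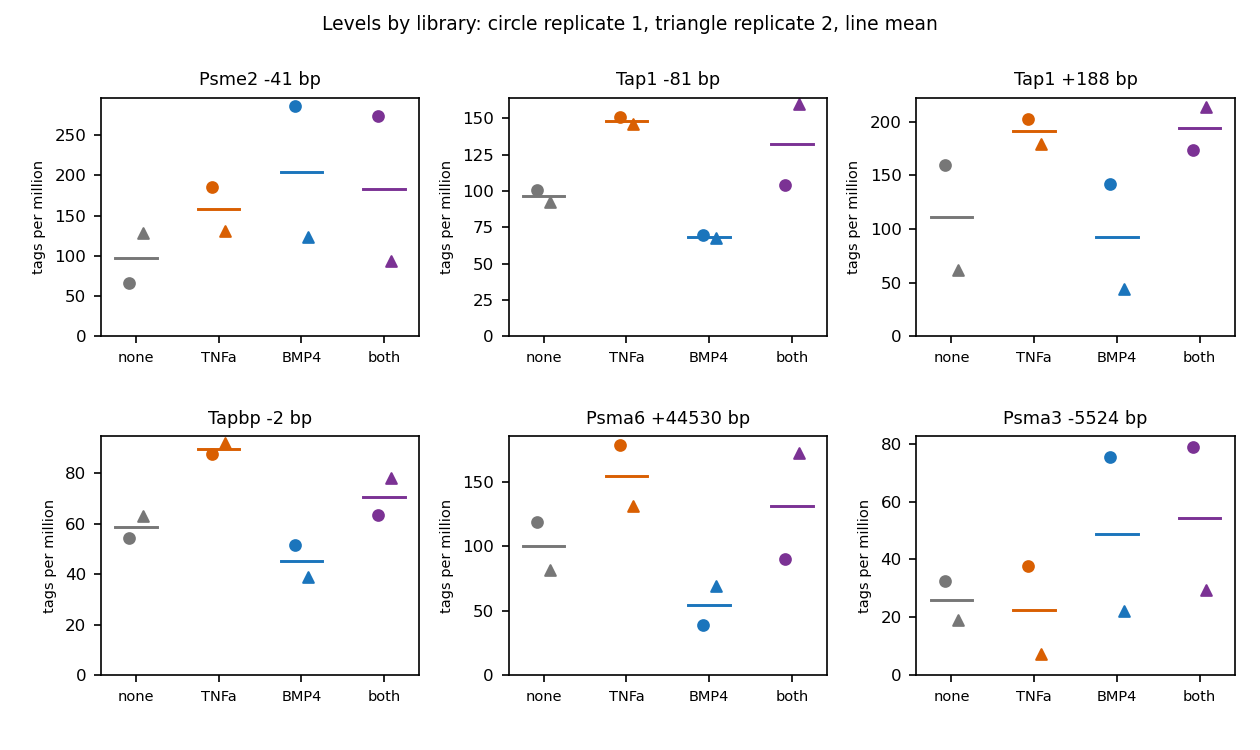
CPM (y axis, from 0) in each library of the 4 groups (x axis) for 6 windows, named by gene and distance from its start; circles are replicate 1, triangles replicate 2 and lines the mean of 2 libraries. At Tap1 -81, upstream of Psmb9, the 4 libraries given TNFa hold 104 to 160 CPM and the others 67.4 to 101, and at Psme2 the BMP4 libraries hold 286 and 123.

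Of the 68 loci, 29 were in all 4 lists and all passed the filter on low counts: 24 of constitutive subunits, Psme2, the activator Psme3, Psmd10 and 2 windows of Psmd5. Their median level was 43.0 CPM, with a range of 10.4 to 161, against 49.6 over all tested windows. The 5 highest were Psme2, the Psmb3 window at -193 bp (124), a Psma6 window at 44530 bp (110), Psmd3 (96.7) and the Psmd5 promoter (72.9), and the lowest was Psmd6, a lid subunit, at 10.4 CPM. Neighbours in this order overlapped in their libraries. Replicates differed by a median of 0.72 on the log2 scale, against 0.74 over all windows, while the 4 group means of a window spanned a median of 0.76, against 0.80. Psma1 varied least, at 20.6 to 31.0 CPM over the 8 libraries, and the Psma3 window at -5524 bp most, at 7.17 to 78.9.

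**Figure D4:**
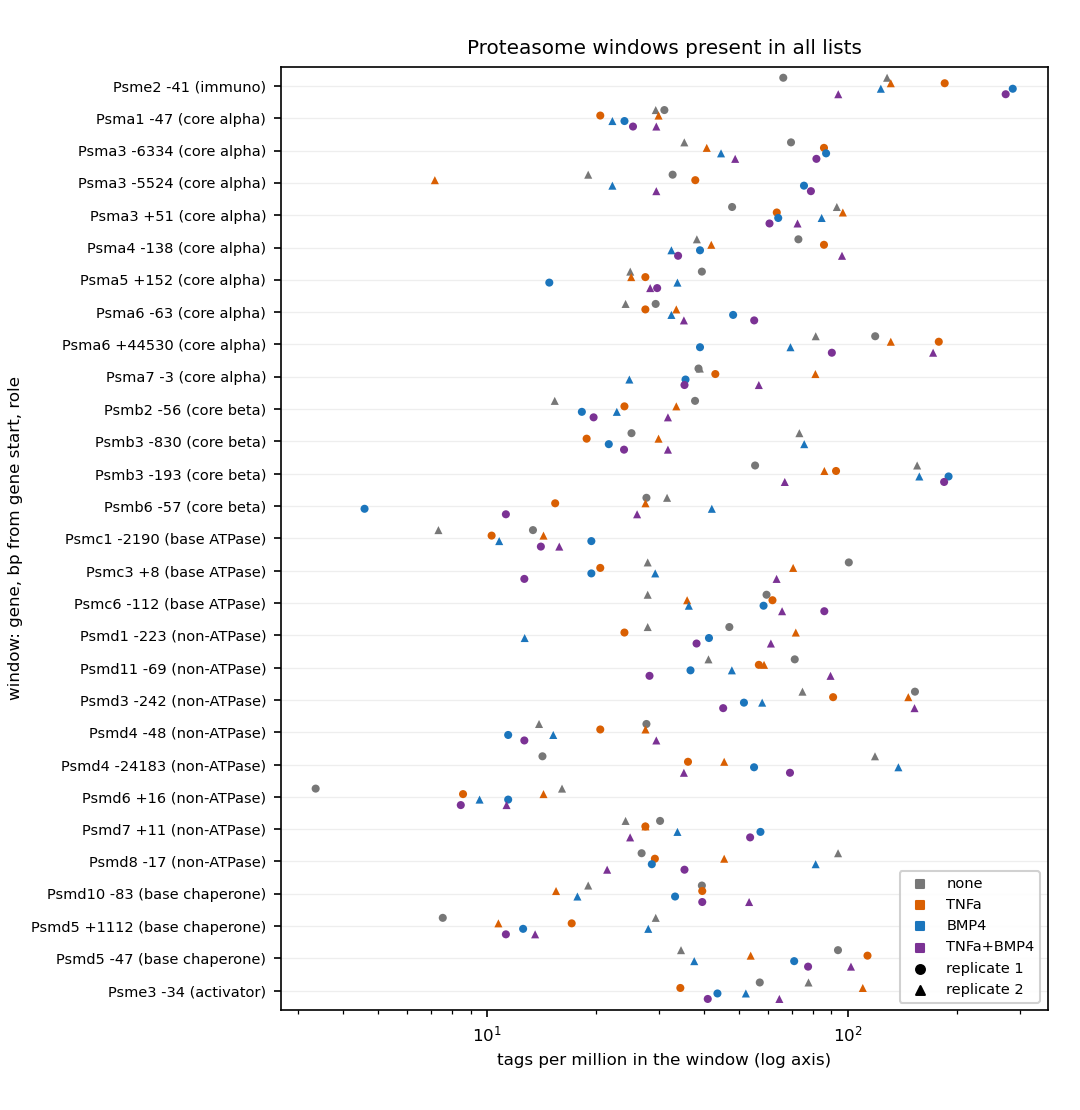
CPM (x axis, log scale) of the 29 proteasome windows found in all lists (y axis, with the distance in bp and the role) in each of the 8 libraries; colours are groups, circles replicate 1 and triangles replicate 2. Colours are mixed within most rows, and Psme2 reaches the highest values at 286 CPM.

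The first contrast set TNFa alone against untreated cells. No proteasome window passed an adjusted p of 0.05, and none of the 14416 windows did (limma, 0% called). At an unadjusted p under 0.05 there were 0 proteasome windows, against 1.05% of all windows. Log2 fold changes lay above 0 in 17 of 29 windows, with a median of 0.11 against 0.00 over all windows (7207 above 0), and the median of the 24 constitutive windows was 0.14. It was 0.41 without untreated replicate 1 and -0.20 without untreated replicate 2. Within 1000 bp of a start, 12 of 19 constitutive windows lay above 0 with a median of 0.11. All windows that near also leaned up, with 3734 of 6701 above 0 and a median of 0.07. Libraries did not overlap in 3 windows that were higher with TNFa and 1 that was lower, where 8.88% and 10.5% of all windows did so. The higher ones were Psme2, Psma6 at 44530 bp and Psma7, and the lower one was Psmb6.

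Psma7, an alpha subunit, held 38.5 and 38.9 CPM in untreated cells and 42.9 and 81.2 with TNFa, a log2 difference of 0.59 ± 0.55 (SE) that was 0.16 without TNFa replicate 2. Psmb3, a structural beta subunit, had at -830 bp 25.1 and 73.3 CPM in untreated cells and 18.9 and 29.9 with TNFa, a difference of -0.81 ± 0.73 with overlapping libraries that was -0.093 without untreated replicate 2. Windows of 3 further genes changed direction without 1 library. The promoter of Psmd5, a chaperone of the ATPase ring, was at 0.44 ± 0.68, and at -0.28 without untreated replicate 2 and -0.08 without TNFa replicate 1. Psmd8, a lid subunit, was at -0.45 ± 0.75, and at 0.39 without untreated replicate 2. The Psma3 window at -5524 bp was at -0.50 ± 0.88, and at 0.58 without TNFa replicate 2.

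BMP4 was compared with no treatment in the same way. No proteasome window and none of all windows passed (limma, 0% called), and 0 against 0.194% had an unadjusted p under 0.05. More proteasome windows lay below than above 0: 12 of 29 were above it, and the median was -0.14, against 0.01 over all windows (7301 above 0). The 24 constitutive windows had a median of -0.15, and those within 1000 bp of a start -0.36, with 6 of 19 above 0, against 0.03 and 3486 of 6701 for all windows that near. The 5 constitutive windows farther out went the other way, with a median of 0.47 and 4 above 0. Without untreated replicate 2 the constitutive median was -0.40. Libraries did not overlap in 3 windows that were higher and 5 that were lower, with 8.32% and 8.68% among all windows. The lower ones were Psma1, Psma7, Psma6 at 44530 bp, Psmd3 and Psme3, the activator of the nuclear proteasome, and the higher ones Psmb3 at -193 bp, Psma6 at -63 bp and Psmd7.

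The distal Psma6 window held 119 and 81.4 CPM in untreated cells and 38.9 and 69.3 with BMP4, a log2 difference of -0.90 ± 0.58 (SE; limma adjusted p = 1.00). Psmd3, a lid subunit, held 153 and 74.8 CPM in untreated cells and 51.5 and 57.8 with BMP4, a difference of -0.95 ± 0.70. In both windows the BMP4 libraries were below the untreated ones, and the differences were -0.50 without BMP4 replicate 1 and -0.43 without untreated replicate 1. Psmc3, an ATPase, held 101 and 27.9 CPM in untreated cells and 19.5 and 29.2 with BMP4, a difference of -1.10 ± 0.92 that was -0.20 without untreated replicate 1. Psmb3 at -193 bp held 55.3 and 156 CPM against 190 and 158, a difference of 0.88 ± 0.69 that was 0.16 without untreated replicate 1. Psmd7 held 30.2 and 24.2 CPM against 57.2 and 33.7, a difference of 0.66 ± 0.56 that was 0.30 without BMP4 replicate 1. At the distal Psmd4 window, at -24183 bp of this ubiquitin receptor gene, the difference of 1.01 ± 0.94 became -0.42 without untreated replicate 1.

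TNFa+BMP4 was compared with no treatment. No proteasome window and none of all windows passed (limma, 0% called), and 0 against 2.48% had an unadjusted p under 0.05. Of 29 windows 17 lay above 0, with a median of 0.20 against -0.01 over all windows (7166 above 0). The constitutive median was 0.16, and -0.12 without TNFa+BMP4 replicate 2. Within 1000 bp of a start it was -0.01, with 9 of 19 above 0, against 0.07 and 3632 of 6701 for all windows that near. The 5 constitutive windows farther out had a median of 0.34, with 5 above 0. Libraries did not overlap in 4 windows that were higher (Psma6 at -63 bp, Psmc1, Psmc6 and Psmd10) and 1 that was lower (Psmb6), where 16.8% and 16.5% of all windows did so. Psmc6, an ATPase, held 59.5 and 27.9 CPM in untreated cells and 86.0 and 65.7 with TNFa+BMP4, a log2 difference of 0.85 ± 0.60 (SE; limma adjusted p = 0.897) that was 0.31 without untreated replicate 2. The Psma6 promoter held 29.3 and 24.2 CPM against 55.0 and 35.1, a difference of 0.68 ± 0.51 that was 0.38 without TNFa+BMP4 replicate 1. Psmd10, gankyrin, held 39.4 and 19.1 CPM against 39.5 and 53.2, a difference of 0.70 ± 0.63 that was 0.19 without untreated replicate 2. The lower differences of Psmd8 (-0.83 ± 0.75), Psmc3 (-0.84 ± 0.92) and Psmb3 at -830 bp (-0.61 ± 0.73) became 0.02 without untreated replicate 2, 0.09 without untreated replicate 1 (0.24 without TNFa+BMP4 replicate 1) and 0.10 without untreated replicate 2.

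Averaging over the other factor set 4 libraries against 4. For TNFa, 19 of 29 proteasome windows lay above 0 with a median of 0.14, against 0.00 over all windows. Within 1000 bp of a start, 12 of 19 constitutive windows did so with a median of 0.16, against 3700 of 6701 and 0.065 for all windows that near. Of the 29 windows 0 passed (limma, 0% called), and 0 had an unadjusted p under 0.05, against 4.36% of all windows. The distal Psma6 window, which is intergenic and tied to Psma6 by the nearest-gene rule alone, came closest. It held 119 and 81.4 CPM in untreated cells and 38.9 and 69.3 with BMP4, against 179 and 131 with TNFa and 90.2 and 172 with TNFa+BMP4, so that only TNFa+BMP4 replicate 1 overlapped with the libraries without TNFa. The difference was 0.93 ± 0.41 (SE; limma adjusted p = 0.854, unadjusted 0.052). Psma7 was at 0.57 ± 0.39, the Psmd5 promoter at 0.60 ± 0.48, Psmb3 at -830 bp at -0.67 ± 0.52 and Psmd8 at -0.61 ± 0.53, and the last pair became 0.12 and 0.18 without untreated and BMP4 replicate 2 together. The Psmd5 window at 1112 bp was at -0.34 ± 0.48 and at 0.09 without untreated replicate 2. With the replicate number as a block, 119 of all windows passed for the TNFa average (66 higher) and 0 proteasome windows; the distal Psma6 window then had an adjusted p = 0.186 by limma.

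For BMP4, 14 of 29 windows lay above 0 with a median of -0.05, against 0.01 over all windows (7314 above 0), and none passed (limma, 0% called; unadjusted p under 0.05 in 0, against 1.1% of all windows). The Psma3 window at -5524 bp held 32.7 and 19.1 CPM in untreated cells and 37.8 and 7.17 with TNFa, against 75.5 and 22.2 with BMP4 and 78.9 and 29.4 with TNFa+BMP4. Within each replicate number the libraries with BMP4 were above those without, and replicate 1 was above replicate 2 throughout. The difference was 1.04 ± 0.62 (SE; limma adjusted p = 1.00), and with the replicate block limma gave an adjusted p = 0.429. Psma6 at -63 bp was at 0.52 ± 0.36 and Psmd7 at 0.53 ± 0.39. The distal Psma6 window (-0.59 ± 0.41), Psmd3 (-0.71 ± 0.49) and Psmc3 (-0.74 ± 0.65) were lower. In neither average was a proteasome window free of overlap in either direction, where 1.82% (higher) and 2.62% (lower) of all windows were for TNFa and 0.777% and 0.853% for BMP4.

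**Figure D5:**
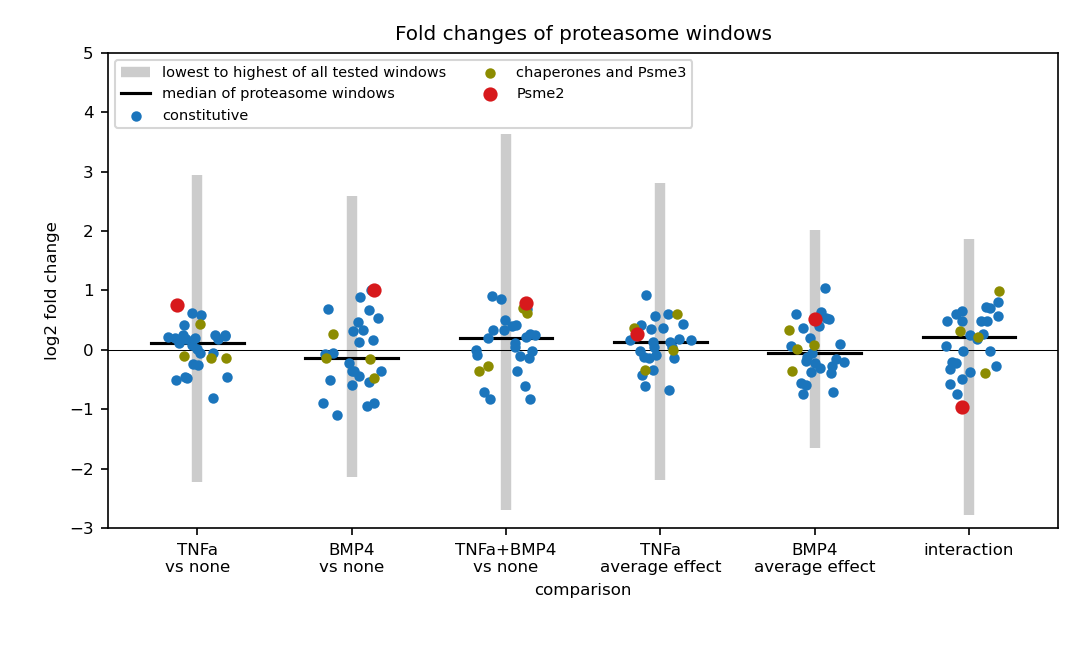
Log2 fold changes (y axis) of the 29 proteasome windows in 6 comparisons (x axis); blue points are constitutive subunits, olive points chaperones and Psme3, the red point Psme2, black lines the median of the 29 and grey bars the lowest to highest value over all tested windows. The medians lie between -0.14 and 0.21, and no proteasome window passes.

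No interaction of TNFa and BMP4 passed at a proteasome window or at any window (limma, 0% called, and 0% at an unadjusted p under 0.05). Of 29 windows 17 lay above 0, with a median of 0.21 against 0.02 over all windows (7553 above 0). The 3 windows above 0 with the smallest p were Psmd10 at 0.99 ± 0.90 (SE), the non-ATPase scaffold Psmd1 at 0.80 ± 1.04 and Psma5 at 0.58 ± 0.77. They were 0.37 without TNFa replicate 2, 0.035 without BMP4 replicate 2 and 0.043 without BMP4 replicate 1. Among the lower ones, next to Psme2, the distal Psmd4 window was at -0.74 ± 1.32, Psmb3 at -193 bp at -0.57 ± 0.97 and Psmd6 at -0.49 ± 0.92. These 3 became 0.70, 0.15 and 0.37 without untreated replicate 1, and Psmb3 0.15 without TNFa+BMP4 replicate 2. The constitutive median of 0.21 was 0.59 without untreated replicate 2 and 0.01 without TNFa replicate 1.

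By role, no window of any group of subunits passed. The 9 alpha ring windows had medians of 0.18 with TNFa, -0.36 with BMP4 and 0.20 with TNFa+BMP4, and the 4 beta ring windows -0.27, -0.15 and -0.28. The 8 non-ATPase windows had 0.10, -0.21 and 0.10, and the 3 ATPase windows 0.20, 0.16 and 0.50. Over all windows the medians were -0.0001, 0.0091 and -0.0065 in the same order, and over all windows within 1000 bp of a start 0.0696, 0.0278 and 0.0678. Psma3 and Psma6 each gave more than 1 alpha ring window, some of them intergenic, and Psmb3 gave beta ring windows at -830 and -193 bp. No error is given for the medians by role, since the windows share their libraries. All of these comparisons share the untreated libraries, so they are not independent of each other.

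Genes outside the name rule that work with the proteasome were counted from a list. Of 27 cofactors and regulators, such as ubiquitin genes, shuttle factors, Vcp and the transcription factor genes Nfe2l1 and Nfe2l2, 21 had 39 tested windows, and 0 passed in any of the 6 comparisons; with TNFa 28 of 39 lay above 0, with a median of 0.28, against 7207 of 14416 and 0.00 over all windows. Of 9 antigen processing partners, 6 had 12 tested windows, and 0 passed. With TNFa 11 of 12 lay above 0 with a median of 0.55, beside the same all-window values. All windows within 1000 bp of a start had 3734 of 6701 above 0 and a median of 0.07. For the TNFa average 4 of the 12 were higher without overlap, where 1.82% of all windows were. They lay at Tap1 (both windows), at Tapbp, which loads peptides with Tap1, and at 32818 bp of Irf1, a transcription factor of interferon signalling. The Irf1 window is annotated in an intron of another transcript. The 12 windows come from 6 genes of a list chosen with earlier results known, and the Tap1 windows were picked after their values were seen. This share therefore tests no effect of TNFa. Tapbp held 54.5 and 63.1 CPM without treatment, 87.5 and 92 after TNFa, 51.5 and 38.8 after BMP4 and 63.4 and 78.2 after both. By name, the immunoproteasome genes gave 1 tested window, so their comparison with the 24 constitutive windows is a comparison of Psme2 alone. Both Tap1 windows, 145 and 414 bp upstream of the Psmb9 start in untreated cells, were tested too but are counted among the partners.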

How the data were processed

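The submitters' processing notes name HOMER 4.11, deepTools 3.5.1, Picard 2.25.1, Bowtie2 2.5.1, Trimmomatic 0.39 and the build mm10. Whether cut positions were offset for the transposase: not given in the sources used here. Peaks, per the file headers, were called by the authors in 125 bp windows on pooled replicates of a group against both background libraries, at an adjusted p under 0.05. The authors deposited a HOMER score, a log2 fold over background, p-values and values per library. Headed as tag counts, the last were in fact deposited as regularised log2 values, one fit per list. Their equation, with 3 fitted constants, was solved for the tag counts; 99.3% to 100% of values came within 0.1 of a whole number (30.1% to 45.8% with a constant moved by 5%), as did all values of the 195 proteasome rows. All columns were mapped to samples.

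Windows overlapping by 63 bp in all 4 lists (14471) with at least 10 tags in 2 libraries and 15 in all (14416) were tested with limma 3.58.1 in R 4.3.3, with a mean-variance trend on log2 counts-per-million (trimmed-mean scaling, pseudocount 2, so low windows understate change), group as the only term and Benjamini-Hochberg over all windows. P-values are two-sided. On simulated data the recovery and the fit were tested. The simulated spread between libraries was a chosen value and not estimated from these data, so that test does not show how the fit performs on them. The members, lists, motifs and tests were chosen with earlier results of these data known. Windows named were all immunoproteasome windows, the 3 higher and 3 lower others of smallest p per comparison, and the 5 highest. The labels give replicate numbers 1 and 2; deviations of same-numbered libraries correlated at 0.105 to 0.764 over the 6 pairs of groups, all over 0.1, so a fit with the replicate number as a block was also made. The 21 alternatives included 8 that leave out a library and 1 chosen after seeing the data.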

Additional observations from a re-analysis of the deposited data

How the results depend on the processing

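The 12 counts of windows called, over all windows and over proteasome windows, were recomputed under 21 alternatives, and 251 of 252 values stayed at the reported count. The exception is the replicate block, with which 119 windows passed for the TNFa average in place of 0; the block changed no other call. The lowest adjusted p of a proteasome window under any setting was 0.186. Scaling to total tags moved the median of all windows by -0.15 with TNFa, -0.14 with TNFa+BMP4 and -0.15 for the TNFa average, and changed no call.

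Of the medians of the constitutive windows and of Psme2, 236 of 252 moved by less than the spread between replicates. That spread, a standard deviation on the log2 scale, was 0.19 for the constitutive median and 0.78 for Psme2. It is wide beside the reported values, such as a constitutive median of 0.14 with TNFa. The Psme2 difference of 0.79 with TNFa+BMP4 counted as unmoved at 0.027 without TNFa+BMP4 replicate 1, so the count is no measure of stability. With identical coordinates, which left 7 proteasome windows, the constitutive median was -0.91 for BMP4, -0.064 for TNFa+BMP4, -0.59 for the BMP4 average and 0.52 for the interaction. When only windows within 1000 bp of a start were scaled and fitted, it was -0.36 for BMP4 and -0.10 for TNFa+BMP4. With untreated and BMP4 replicate 2 left out together, an alternative chosen after seeing the data, it was -0.22 for TNFa and 0.42 for the interaction, and Psme2 was at 2.03 for BMP4 and -1.99 for the interaction. Leaving out each library in turn, the constitutive median ran from -0.20 to 0.41 for TNFa, -0.40 to -0.12 for BMP4, -0.12 to 0.30 for TNFa+BMP4 and 0.0096 to 0.59 for the interaction. The cause of these moves was not tested.

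Of 841 values of named windows, 818 kept direction and call. Without untreated and BMP4 replicate 2, the direction turned for Psmb3 at -830 bp (0.12), Psmd8 (0.18) and Psmd5 at 1112 bp (0.34) in the TNFa average, the Psmd5 promoter (-0.27) and Psmd8 (0.39) with TNFa, and Psmd8 (0.019) and Psmb3 at -830 bp (0.10) with TNFa+BMP4. The others turned when a library was left out: ranges were -0.42 to 2.41 (BMP4) and -2.13 to 0.70 (interaction) for Psmd4 at -24183 bp, -0.74 to 0.089 for Psmd5 at 1112 bp, -0.12 to 0.64 for Psme2 in the TNFa average, -0.28 to 1.17 for the Psmd5 promoter, -1.28 to 0.39 for Psmd8 and -1.57 to 0.58 for Psma3 at -5524 bp with TNFa, -1.66 to 0.018 for Psmd8, -1.92 to 0.24 for Psmc3 and -1.31 to 0.10 for Psmb3 at -830 bp with TNFa+BMP4, and -1.29 to 0.15 for Psmb3 at -193 bp and -1.32 to 0.37 for Psmd6 in the interaction. With 2 libraries a group and 10.4 to 161 CPM a window, small changes could not be resolved. Large ones were not resolved either. Over all windows, log2 fold changes of up to 2.95 with TNFa and 3.63 with TNFa+BMP4 did not pass, so the absence of calls sets no such bound on proteasome windows.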
